A study of Mus musculus with 6 samples.

Results

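A set of 9 genes that make, bind, degrade or sense retinoic acid were followed in tumours of mice given estradiol or placebo. They were the retinaldehyde dehydrogenases Aldh1a1, Aldh1a2 and Aldh1a3, the degrading enzymes Cyp26a1 and Cyp26b1, the cellular retinoic acid binding proteins Crabp1 and Crabp2, and the receptors Rara and Rarb. The genes were chosen by symbol, among probe sets that the platform annotation ties to 1 gene, and all 9 were measured, each by 1 probe set, among 19937 genes in all. The samples were 6 tumours, 1 array each. Of these, 3 came from SCID mice implanted with 17β-estradiol (E2) pellets and 3 from SCID mice implanted with placebo pellets. All 6 tumours grew from MASE2 cells injected when the pellets were placed. MASE2 is a single cell line, grown from ascites of the transgenic model tgCAG-LS-TAg under E2. In that model Cre, delivered by adenovirus into the ovarian bursa, switches on SV40 TAg (large and small) in OSE, the surface epithelium of the ovary. SCID hosts lack mature T and B cells but keep their stroma, vessels and myeloid cells, and the mice were killed at loss of wellness, so no common day of collection is given. No age is given in the labels.

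Retinoic acid is made from retinol in 2 oxidation steps, the second by the ALDH1A enzymes. CRABP proteins carry it in the cytosol, RAR receptors bind it in the nucleus as partners of RXR, and CYP26 enzymes destroy it. The loop closes on itself, because liganded RARs switch on Cyp26a1, Rarb and Crabp2. In the ovary and the lining of the body cavity the pathway is best known for the entry of germ cells into meiosis and for the abundance of Aldh1a2 in mesothelial cells.

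Values are RMA log2 intensities, so 1 unit is a doubling, and changes are E2 minus placebo. The array medians over all probe sets lay between 4.84 and 4.97. The lower quartile of genes lay between 4.22 and 4.39, and no member was below it on any array except Cyp26a1 on 1 placebo array. Placebo replicate 3 stood apart, with Pearson r across genes of 0.857 to 0.865 with the other arrays, against 0.960 to 0.994 among those. The 9 intestinal epithelium markers were all highest there. Their summed signal on a log2 scale was 7.34 to 7.78 in the E2 tumours, against 7.41, 7.49 and 14.20 in placebo replicates 1, 2 and 3. The main results are therefore given with and without that array. The keratin genes Krt8, Krt18 and Krt19 and the ovarian surface marker Wt1 were above the lower quartile on all 6 arrays. Muc16, a mucin of the same epithelium, was below it on all 3 E2 arrays and on 1 placebo array.

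Cyp26a1 rose with E2 and the rest of the family divided into genes that lay higher and genes that did not. With all 6 arrays, limma with Benjamini-Hochberg adjustment over all genes called 1 of the 9 members higher, where 1.06% of all genes were called higher, and called 0 lower, where 0.326% were. At an unadjusted limma p under 0.05, 5 members were higher, against 10.4% of all genes, and 0 lower, against 6.16% of all genes. Without placebo replicate 3, 4 members were higher (Cyp26a1, Aldh1a1, Aldh1a2 and Rara), against 6.4% of all genes, and 0 were lower, against 5.21% of all genes. At an unadjusted p, that fit had 6 members higher, against 13.5% of all genes, and 1 lower, against 11.5% of all genes. In 6 of the 9 genes every E2 tumour lay above every placebo tumour, where 14.9% of all genes did so, and in 1 every E2 tumour lay below, where 11.4% did so. The median change of the 9 genes was 0.39, against -0.01 for all genes, and 0.36 against -0.01 without placebo replicate 3. The genes were chosen with earlier results of these data known, so these shares describe the 9 genes and carry no test. In bulk tumours, fewer cells of a type and less RNA per cell cannot be told apart.

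**Figure D1:**
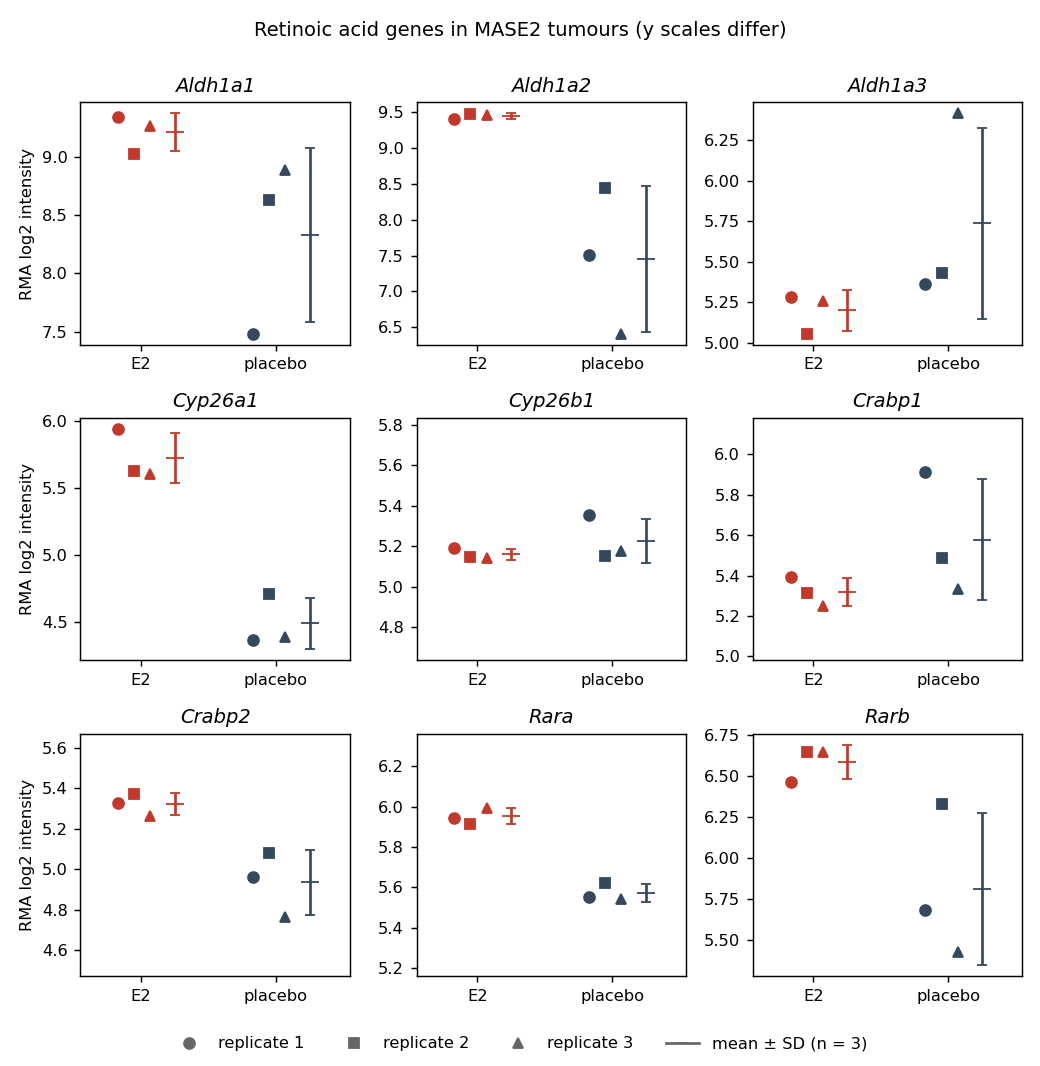
RMA log2 intensity (y axis, a different scale in each panel) of the 9 genes in E2 tumours (red, left) and placebo tumours (dark blue, right), with 1 symbol per tumour and bars for the mean ± SD (n = 3). E2 lies wholly above placebo for Aldh1a1, Aldh1a2, Cyp26a1, Crabp2, Rara and Rarb and wholly below for Aldh1a3, while Cyp26b1 and Crabp1 overlap.

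**Figure D2:**
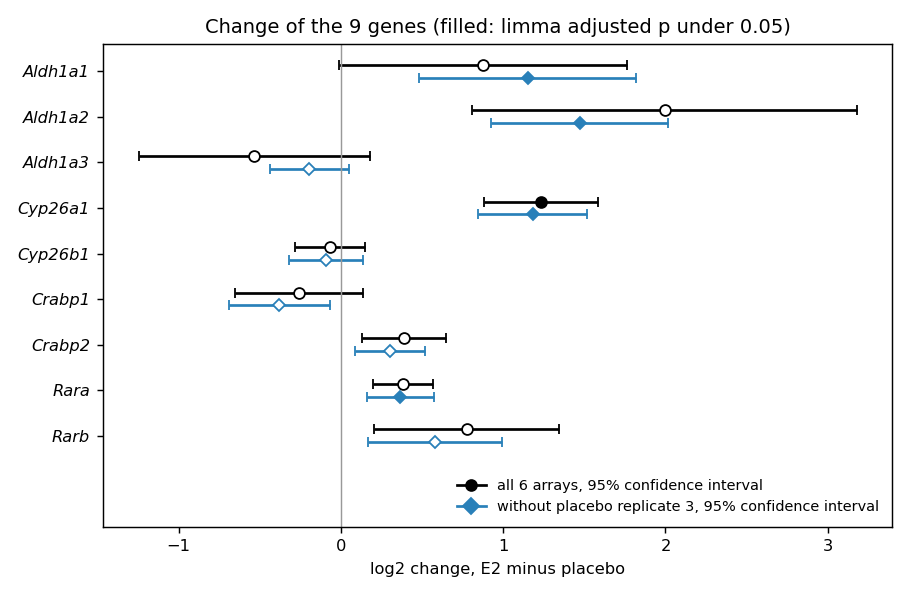
Log2 change, E2 minus placebo (x axis), of each gene with its 95% confidence interval, for all 6 arrays (black circles) and without placebo replicate 3 (blue diamonds), filled where the limma adjusted p is under 0.05. Cyp26a1 is filled in both fits, and Aldh1a1, Aldh1a2 and Rara only without placebo replicate 3.

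The enzymes of synthesis held the widest spread between placebo tumours. Aldh1a2, the main retinoic acid producing enzyme of the embryo, measured 9.41, 9.48 and 9.46 in the E2 tumours, against 7.51, 8.45 and 6.41 in placebo replicates 1, 2 and 3. The E2 tumours spanned 0.07, and the placebo tumours were all lower and spanned 2.04. Aldh1a2 averaged 9.45 ± 0.04 with E2 and 7.46 ± 1.02 with placebo (SD, n = 3 each), a difference of 1.99 (SE 0.48, 95% confidence interval 0.81 to 3.18, 3.98-fold). It did not pass in limma over all genes (adjusted p = 0.126). Placebo replicate 3 held the lowest value, and without it the difference was smaller, 1.47 (SE 0.23), and passed (adjusted p = 0.00694).

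Aldh1a1, a widely expressed retinaldehyde dehydrogenase also used as a stem cell marker, measured 9.34, 9.02 and 9.26 in the E2 tumours, against 7.49, 8.63 and 8.88 in the placebo tumours. The groups did not overlap, but placebo replicate 3 came within 0.14 of the lowest E2 tumour. The difference was 0.87 (SE 0.36, 95% confidence interval -0.02 to 1.76) and did not pass in limma (adjusted p = 0.309). Without placebo replicate 3 it was 1.15 and passed (adjusted p = 0.0399), and without placebo replicate 1, the lowest tumour, it was 0.45 (adjusted p = 0.276). The nearby paralog Aldh1a7 is close enough in sequence that the probes may share signal. Aldh1a7 measured 6.36, 6.09 and 5.95 in the E2 tumours, against 4.69, 4.63 and 6.32 in the placebo tumours, so placebo replicate 3 lay among the E2 tumours. Its difference was 0.92 (limma adjusted p = 0.388), and 1.48 without that array (adjusted p = 0.000552).

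Aldh1a3, the ALDH1A enzyme of developing eye and nasal tissue, ran the other way. It measured 5.29, 5.06 and 5.26 in the E2 tumours, against 5.36, 5.43 and 6.42 in the placebo tumours. The groups did not overlap, but were only 0.07 apart at their nearest, and placebo replicate 3 stood well above the rest. The difference was -0.54 (SE 0.29, limma adjusted p = 0.42), and -0.20 without that array (adjusted p = 0.304). The intestinal markers were high in the same array, and their part in the Aldh1a3 value was not tested.

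Of the degrading enzymes, Cyp26a1 was called and Cyp26b1 was not. Cyp26a1 measured 5.94, 5.63 and 5.60 in the E2 tumours, against 4.37, 4.71 and 4.39 in the placebo tumours. The lowest E2 tumour was 0.89 above the highest placebo tumour. Cyp26a1 rose by 1.23 (SE 0.14), or 2.35-fold, with a 95% confidence interval of 0.88 to 1.58 and a limma adjusted p of 0.0237. Its value hardly depended on placebo replicate 3, since without that array the change was 1.18 (adjusted p = 0.00232). The call did not survive the loss of E2 replicate 1, 2 or 3 or of placebo replicate 1 (changes 1.12, 1.28, 1.29 and 1.17, limma adjusted p = 0.106, 0.131, 0.117 and 0.095).

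Cyp26b1, the second retinoic acid hydroxylase, measured 5.19, 5.15 and 5.14 in the E2 tumours, against 5.35, 5.15 and 5.17 in the placebo tumours. The groups overlapped and all 6 values spanned 0.21. The difference was -0.07 (95% confidence interval -0.28 to 0.15, limma adjusted p = 0.734), and its sign turned under repeated quantile normalization (0.0034) and median centring (0.018). Cyp26a1 minus Cyp26b1, taken within each array, was 0.74, 0.48 and 0.46 in the E2 tumours, against -0.99, -0.44 and -0.79 in the placebo tumours. The changes of the pair thus differed by 1.30, with an exact two-sided permutation p of 0.10, the smallest that 3 against 3 allows.

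The start of Cyp26a1 and that of Rarb hold an element through which retinoic acid receptors act. Both are printed here because no other member with a searched promoter window has one. The element, called DR5, is a pair of hexamers in the same direction with 5 bases between them. The hexamer searched was AGGTCA, in which the first base could also be G and the third base could also be T. Both strands were searched, over 250 bases before and 50 after each start that RefSeq lists (GRCm38.p6). Windows were at hand for 7 of the 9 genes, 11 windows in all, and not for Aldh1a3 and Crabp2. The search found DR5 in 2 genes, Cyp26a1 and Rarb. Aldh1a1, Aldh1a2 and Rara also lay higher with E2, and their windows held none. Of all 32851 mouse windows, 32 (0.0974%) held one. Capitals mark the hexamers in the 2 elements, each read 5′ to 3′ on the strand that carries the repeat.
Cyp26a1: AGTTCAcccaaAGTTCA
Rarb: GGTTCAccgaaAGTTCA

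The elements match at 15 of 17 bases. In Cyp26a1 the element lies 32 to 16 bases before the start and is read on the strand opposite to the gene, so in the promoter it appears as its reverse complement. In Rarb it lies 53 to 37 bases before the start, on the strand of the gene. The windows, on the strand of each gene with the whole element in capitals, are chr19:37697558-37697857 (plus strand) for Cyp26a1 and chr14:16575427-16575726 (minus strand) for Rarb.
Cyp26a1: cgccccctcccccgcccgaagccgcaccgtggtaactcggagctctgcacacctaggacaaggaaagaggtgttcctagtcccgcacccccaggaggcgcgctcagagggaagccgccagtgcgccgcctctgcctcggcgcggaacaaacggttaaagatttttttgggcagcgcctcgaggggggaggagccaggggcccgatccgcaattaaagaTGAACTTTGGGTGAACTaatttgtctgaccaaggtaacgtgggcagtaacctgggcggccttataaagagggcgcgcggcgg
Rarb: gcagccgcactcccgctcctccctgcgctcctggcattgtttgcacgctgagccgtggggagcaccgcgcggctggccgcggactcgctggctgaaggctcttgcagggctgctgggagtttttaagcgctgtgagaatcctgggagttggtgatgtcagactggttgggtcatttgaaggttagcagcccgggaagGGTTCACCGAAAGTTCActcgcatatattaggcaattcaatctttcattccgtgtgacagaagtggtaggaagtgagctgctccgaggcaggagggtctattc

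The palindrome to which oestrogen receptors bind, searched as GGTCA followed by any 3 bases and its own reverse complement, on both strands, was in 0 of the 7 genes' windows and in 23 of all 32851 windows (0.07%). Related repeats of the same hexamers with 1 or 2 bases between them were also in 0 of the 7 genes. These letters are a description of the windows. No binding was measured.

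Of the binding proteins, Crabp2, which hands retinoic acid to RAR in the nucleus, lay higher and Crabp1, which holds it in the cytosol, did not. Crabp2 measured 5.33, 5.37 and 5.26 in the E2 tumours, against 4.96, 5.08 and 4.76 in the placebo tumours. The groups did not overlap, but the difference of 0.39 (SE 0.11, 95% confidence interval 0.13 to 0.65) did not pass in limma (adjusted p = 0.161). Without placebo replicate 3 it was 0.30 (adjusted p = 0.0824). Crabp1 measured 5.39, 5.31 and 5.25 in the E2 tumours, against 5.91, 5.49 and 5.33 in the placebo tumours. The groups overlapped at placebo replicate 3, and the difference was -0.26 (95% confidence interval -0.65 to 0.13, limma adjusted p = 0.478), or -0.38 without that array (adjusted p = 0.121). Crabp1 minus Crabp2 within each array was 0.06, -0.06 and -0.01 in the E2 tumours, against 0.95, 0.41 and 0.57 in the placebo tumours. These did not overlap, and the changes of the 2 genes differed by -0.65 (exact two-sided permutation p = 0.10).

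Both receptors lay higher with E2, Rara tightly and Rarb with a wide spread in placebo. Rara, the most widely expressed RAR, measured 5.95, 5.92 and 5.99 in the E2 tumours, against 5.55, 5.62 and 5.54 in the placebo tumours. The values spanned 0.08 in each group, and the groups were 0.29 apart at their nearest. The difference of 0.38 (SE 0.08, 95% confidence interval 0.19 to 0.57, 1.30-fold) missed the threshold in limma (adjusted p = 0.0825) and passed without placebo replicate 3 at nearly the same size (0.36, adjusted p = 0.0365). It also passed with every array centred on its median (0.46, adjusted p = 0.0462) and with array weights (0.36, adjusted p = 0.0296). Median centring raised the changes of all genes, however. Their median went from -0.01 to 0.075, and 363 genes were called higher and 62 lower. Over all alternatives its limma adjusted p ran from 0.0296 to 0.325, and it was 0.17 with a trended and robust variance and 0.145 to 0.314 with any array but placebo replicate 3 left out.

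Rarb, the receptor gene that retinoic acid itself induces, measured 6.47, 6.65 and 6.65 in the E2 tumours, against 5.68, 6.33 and 5.43 in the placebo tumours. The groups did not overlap, and placebo replicate 2 came within 0.14 of the lowest E2 tumour. The difference was 0.77 (SE 0.23, 95% confidence interval 0.20 to 1.35, 1.71-fold) and did not pass in limma (adjusted p = 0.19). It was 0.58 without placebo replicate 3 (adjusted p = 0.0809) and 1.03 without placebo replicate 2, where it passed (adjusted p = 0.0461). Within each array, Rara minus Rarb was -0.52, -0.73 and -0.65 in the E2 tumours, against -0.13, -0.71 and 0.11 in the placebo tumours, and the groups overlapped. The changes of the 2 receptors differed by -0.39 (exact two-sided permutation p = 0.30), in a test that could not go below 0.10.

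The SD was larger in the placebo tumours for all 9 genes, against 71.9% of all genes, though for Rara and Cyp26a1 the SDs of the groups were nearly equal. Its median over the 9 was 0.07 with E2 and 0.30 with placebo, against 0.10 with E2 and 0.18 with placebo over all genes. Aldh1a2, Crabp2, Rara and Rarb shared 1 order of the placebo tumours, replicate 2 highest and replicate 3 lowest, an order held by 24.1% of all genes. The other members departed from it. Among the placebo tumours, Aldh1a1 and Aldh1a3 were highest in replicate 3, and Cyp26b1 and Crabp1 in replicate 1. Cyp26a1 was highest in replicate 2 but lowest in replicate 1. In all, 6 pairs within a family were compared, and the 3 pairs of ALDH1A genes completed them. Aldh1a2 minus Aldh1a3 was 4.13, 4.43 and 4.20 within the E2 arrays, against 2.15, 3.02 and -0.01 within the placebo arrays. That pair's changes differed by 2.53, or 1.67 without placebo replicate 3. The changes of Aldh1a1 and Aldh1a3 differed by 1.41, or 1.35 without it. Those of Aldh1a1 and Aldh1a2 differed by -1.12, or -0.32 without it. Each had an exact two-sided permutation p of 0.10, so no pair could pass, with or without adjustment for the 6 pairs.

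Around the 9 genes, retinoid handling showed no common direction. Of 30 further genes for the carriers, the oxidoreductases and the other receptors, 29 were measured, and limma called 0 higher and 0 lower over all genes, against 3 and 4 at an unadjusted p under 0.05, where 10.4% and 6.16% of all genes were. Their median change was -0.05. Without placebo replicate 3 it was -0.02. In that fit 3 were higher (Rdh10, Rdh11 and Dhrs9) and 2 lower (Rdh5 and Rxra), against 6.4% and 5.21% of all genes. Rdh10, which oxidises retinol to the retinaldehyde that ALDH1A enzymes use, measured 8.68, 8.26 and 8.67 in the E2 tumours, against 7.12, 7.06 and 7.89 in the placebo tumours. The groups did not overlap. Its difference was 1.18 (SE 0.25, limma adjusted p = 0.0987), and 1.44 without placebo replicate 3 (adjusted p = 0.000854). Rdh12, a retinaldehyde reductase best known from photoreceptors, was 0.44 higher (adjusted p = 0.126). Dhrs3, which turns retinaldehyde back into retinol, differed by 0.05 (adjusted p = 0.952); the difference was -0.31 once placebo replicate 3 was dropped (adjusted p = 0.268).

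Rxra, the main partner of the RARs, lay lower with E2. It measured 5.49, 5.19 and 5.46 in the E2 tumours, against 6.10, 6.04 and 6.31 in the placebo tumours. The groups were 0.56 apart at their nearest. The difference of -0.77 (SE 0.12) just missed the threshold in limma (adjusted p = 0.0521), and without placebo replicate 3 it was -0.70 and passed (adjusted p = 0.00841). Cyp26c1, the remaining CYP26 gene, differed by -0.29 (adjusted p = 0.379). Among the carriers, the retinol binding protein Rbp7 differed by -0.36 (adjusted p = 0.126) and Stra6, a cell surface receptor for the retinol carrier, by 0.30 (adjusted p = 0.332). Rbp2, the retinol binding protein of enterocytes, was chosen after its values were seen. It measured 4.59, 4.76 and 4.79 in the E2 tumours, against 4.45, 4.50 and 11.27 in placebo replicates 1, 2 and 3, so its value followed the intestinal markers of that array.

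Among genes known to respond to retinoic acid, the few calls went both ways. Of 19 listed, 18 were measured. Limma called 1 higher and 2 lower, against 1.06% and 0.326% of all genes, and 15 were not called. Their median change was -0.12, against -0.01 for all genes. Rarres1, a membrane protein gene found as a target of a synthetic retinoid, measured 5.55, 5.70 and 5.79 in the E2 tumours, against 4.65, 4.44 and 4.82 in the placebo tumours. Without overlap between the groups, Rarres1 rose by 1.04 (SE 0.13, adjusted p = 0.0266). Rarres2, which encodes the chemoattractant chemerin, fell. It measured 5.08, 4.88 and 5.05 in the E2 tumours, against 7.08, 7.92 and 6.58 in the placebo tumours, and its change was -2.19 (SE 0.33, limma adjusted p = 0.044).

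Tgm2, tissue transglutaminase, also fell. It measured 6.87, 6.80 and 7.49 in the E2 tumours, against 8.70, 8.92 and 8.63 in the placebo tumours, a change of -1.69 (SE 0.21, limma adjusted p = 0.0254). All 3 calls held without placebo replicate 3 (changes 1.13, -2.50 and -1.75 for Rarres1, Rarres2 and Tgm2). The call of Rarres1 was lost without any other array, that of Rarres2 without any other array but placebo replicate 2, and that of Tgm2 without any other array but E2 replicate 3. Without placebo replicate 3, limma called 2 of the 18 genes higher and 3 lower, against 6.4% and 5.21% of all genes. The further calls were Nrip1 (change 0.48, limma adjusted p = 0.0232) and Btg2 (change -0.48, limma adjusted p = 0.0259). The HOX genes of the list gave no call: Hoxa5 differed by -0.24 (adjusted p = 0.76) and Hoxb4 by 0.12 (adjusted p = 0.718). Stra8, the germ cell gene that retinoic acid induces before meiosis, was below the lower quartile on all 6 arrays and differed by -0.07 (adjusted p = 0.648).

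**Figure D3:**
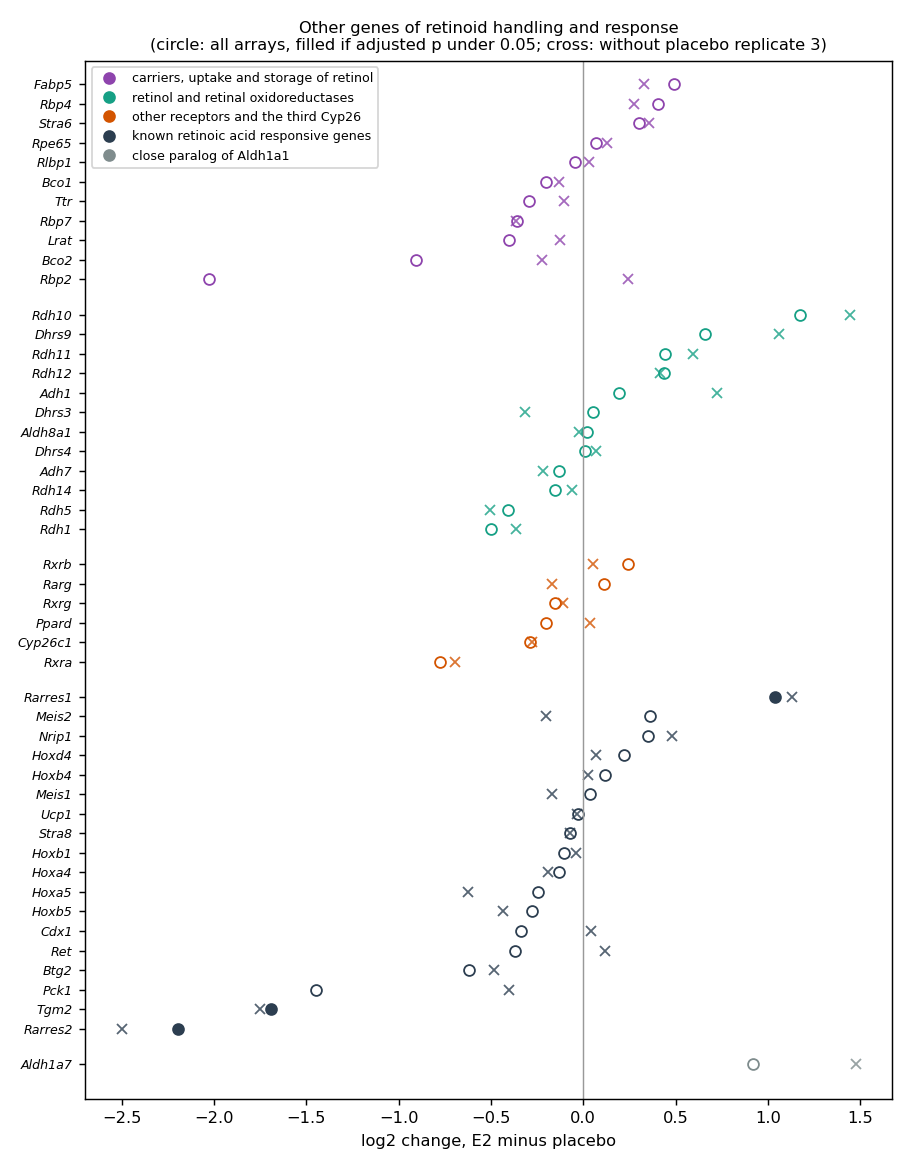
Log2 change, E2 minus placebo (x axis), of the 48 measured genes of the other retinoid lists (y axis, coloured by list), as circles for all arrays, filled where the limma adjusted p is under 0.05, and as crosses without placebo replicate 3. Rarres1, Tgm2 and Rarres2 are filled, and the circle of Rbp2 lies at -2.02 while its cross lies at 0.24.

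Markers of several cell types differed between the groups alongside these genes. The summed signal of 8 mesothelial markers was 9.81 to 10.14 on the log2 scale in the E2 tumours, against 11.53 to 11.90 in the placebo tumours. In placebo replicate 3 that sum was mostly Krt19, a keratin that other epithelia also express. Without Krt19, a choice made after the values were seen, the sum was 8.83 to 9.13 in the E2 tumours, against 11.39, 11.59 and 9.30 in placebo replicates 1, 2 and 3. Aldh1a2, for which mesothelial cells are known, lay higher with E2, and this sum lay lower. Among the placebo tumours Aldh1a2 ran in the same order as this sum, highest in replicate 2 and lowest in replicate 3. Of the 8 mesothelial genes, Upk3b, Upk1b, Msln, Nkain4 and, by a narrow margin, Wt1 had that order too. Lrrn4 and Bnc1 were highest in replicate 1, and Krt19 was highest in replicate 3. An order of 3 tumours is a description only, and 24.1% of all genes held this one. The summed signal of 5 ovarian steroidogenic markers was 9.19 to 9.67 in the E2 tumours, against 6.78 to 6.86 in the placebo tumours. That of 8 macrophage markers was 9.67 to 10.15 with E2 and 10.31 to 11.34 with placebo. None of the markers in these 3 lists was below the lower quartile on all 6 arrays. The fibroblast sums overlapped, 11.84 to 12.04 with E2 and 11.75 to 12.45 with placebo. The endothelial sums were 8.23 to 8.53 with E2 and 8.82 to 8.91 with placebo. Sums of the 6 ovarian surface epithelium markers were 9.93 to 10.32 with E2, against 11.15, 10.51 and 12.48 in placebo replicates 1, 2 and 3. In those 3 placebo tumours Krt8 was 8.70, 7.65 and 11.42, and Krt19 was 10.15, 9.20 and 11.19. Krt19 and Wt1 are in the mesothelial list too, so the 2 sums share markers. The adipocyte sums, in which Lep was below the lower quartile on all arrays, were 6.80 to 6.93 with E2 and 7.48 to 7.97 with placebo. The hepatocyte sums were 6.77 to 6.95 with E2, against 6.97, 7.01 and 8.01 in placebo replicates 1, 2 and 3. Placebo replicates 1 and 2 thus lay only just above the E2 tumours. In placebo replicate 3 the hepatocyte marker Tat was 7.25, its highest value on any array. Of the 6 hepatocyte markers, 0 were higher and 0 lower on 6 arrays at an unadjusted limma p under 0.05. Of the steroidogenic markers, limma called 3 of 5 higher, against 1.06% of all genes, and 5 of 5 without placebo replicate 3, against 6.4%. The other calls on 6 arrays were 1 of 6 in the ovarian surface epithelium list (Krt7) and 1 of 5 in the adipocyte list (Adipoq). Both were lower, where 0.326% of all genes were. Krt7, a keratin of simple epithelia, measured 5.34, 5.29 and 5.30 in the E2 tumours, against 7.36, 7.99 and 7.67 in the placebo tumours. Krt7 fell by 2.36 (limma adjusted p = 0.00445), a call lost only without E2 replicate 1 (adjusted p = 0.0581). Adipoq, an adipocyte hormone, fell by 0.85 (limma adjusted p = 0.046), a call kept only without placebo replicate 3 when 1 array was left out. Without placebo replicate 3, 5 of 8 macrophage, 5 of 8 fibroblast and 4 of 8 endothelial markers were lower, against 5.21% of all genes. So were 4 of 5 adipocyte and 3 of 6 ovarian surface epithelium markers in that fit. In it 1 of 8 fibroblast markers was higher, against 6.4% of all genes. Limma called 0 of the 8 mesothelial markers on 6 arrays (7 lower at an unadjusted p under 0.05, against 6.16% of all genes). Without placebo replicate 3 it called 7 lower, against 5.21% of all genes. The part of these cell types in the retinoic acid genes was not tested.

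**Figure D4:**
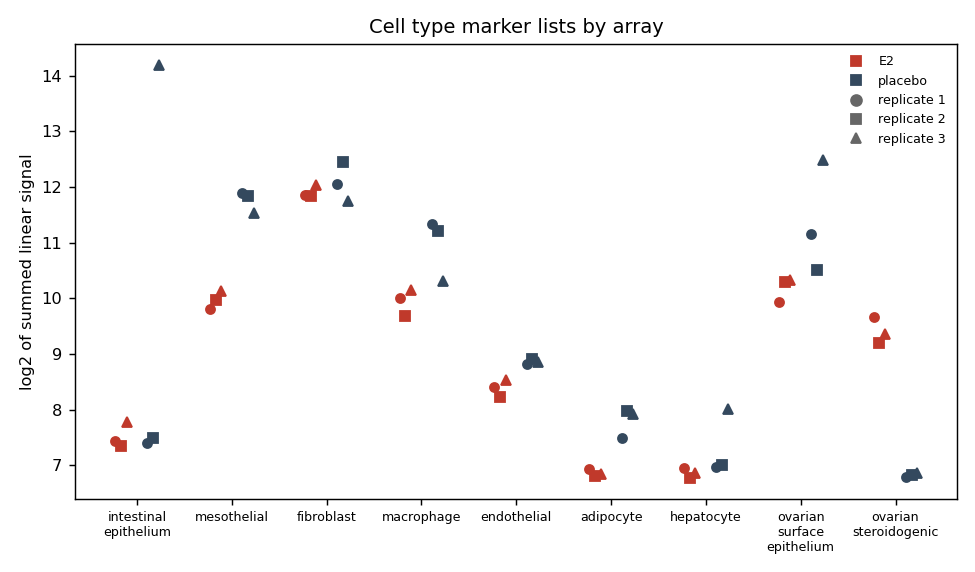
Summed linear signal of each marker list on a log2 scale (y axis) by list (x axis), with E2 tumours in red on the left, placebo tumours in dark blue on the right and 1 symbol per replicate. Mesothelial sums are 9.81 to 10.14 with E2 and 11.53 to 11.90 with placebo, steroidogenic sums run the other way, and placebo replicate 3 stands at 14.20 in the intestinal list.

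The genes whose levels followed Cyp26a1 most closely over the 6 arrays were Adgrf4, an adhesion G protein-coupled receptor, Stc2, a secreted glycoprotein, and Akr1c14, an aldo-keto reductase. Their Pearson r with Cyp26a1 was 0.994, 0.994 and 0.993, among 3883 named genes with a range of at least 1 log2 unit. The 6 arrays fall into the E2 and placebo groups, and r includes the difference between them, so it is given as a measure of likeness only. Akr1c14 measured 8.23, 7.87 and 7.65 in the E2 tumours, against 5.52, 6.27 and 5.28 in the placebo tumours. As with Cyp26a1, E2 replicate 1 was the highest E2 tumour and placebo replicate 2 the highest placebo tumour. Akr1c14 was picked for its r with Cyp26a1, so this likeness within the groups is no separate result. The limma changes were 0.95 for Adgrf4, 1.90 for Stc2 and 2.23 for Akr1c14.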

How the data were processed

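RNA of 6 MASE2 tumours was labelled with biotin and hybridised to single-colour whole-transcript arrays, 1 per tumour, per the labels. The authors deposited log2 intensities, and the submitters' processing notes name RMA. Which software ran it, with which annotation, is not stated there. RMA equalises the arrays and compresses changes near background. Groups and replicate numbers were read from the titles. There were 34760 probe sets, of which 21640 carry 1 symbol and were used. Another 1321 carry several symbols, and 11799 are unnamed here. The probe set of highest mean stood for a gene, leaving 19937 genes. No detection call was used, and precision is limited by the small number of arrays.

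A linear model without covariates was fitted to all 6 arrays (limma 3.58.1, lmFit then eBayes, under R 4.3.3), and its test is two-sided. The threshold was an adjusted p under 0.05 (Benjamini-Hochberg over all genes). Confidence intervals cover 95% and are not adjusted. Within-array differences between family members were tested by exact permutation. Per the design text the tumours are biological replicates. On simulated data for the 19937 genes of this comparison, the test found 53% of the genes shifted by a log2 of 1. It found 86% of those shifted by 2, and 5 false ones. The simulated noise was independent, with 1 SD per gene for both groups and no array that stood apart. In the real data the placebo SD was larger for 71.9% of genes, so the rates on these arrays may differ.

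The members, the other retinoid lists and the marker lists were chosen with earlier results of these data known. Named genes were the 9 members, called genes of the other retinoid lists or, where a list had none, the 2 of smallest p, and the 3 genes most like each called member. Other genes named (Rbp2, Dhrs3, Rdh5, Rdh11, Dhrs9, Hoxa5, Hoxb4, Stra8, Nrip1, Btg2, Prokr2 and the single markers) and the search for motifs were chosen after their values were seen. Of the 50 genes in the other retinoid lists, 48 were analysed here. Promoter sequences are RefSeq's, of a build that may differ from the one behind the array annotation.

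Alternatives were each array left out, the replicate number as a block, 2 filters on dim genes, probe sets of a gene averaged, probe sets tested singly, array weights, median centring, repeated quantile normalization, a variance model that was robust with a trend, and an adjusted p under 0.10. A floor at the lower quartile and the mesothelial sum without Krt19 were added after the data were seen.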

Additional observations from a re-analysis of the deposited data

How the results depend on the processing

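Of the members, 1 was called higher with E2 on 6 arrays. The number was 2 with median centring (Cyp26a1 and Rara), 3 with array weights (Cyp26a1, Aldh1a2 and Rara), 2 at an adjusted p under 0.10, and 0 to 4 with 1 array left out. It was 0 with the filter at the median, which removes Cyp26a1 itself. Over all genes, 211 were higher and 65 lower. These counts were 363 and 62 with median centring, where the median change of all genes was 0.075. They were 1026 and 760 with array weights, 543 and 193 at an adjusted p under 0.10, and 31 to 1276 and 0 to 1039 with 1 array left out. The count of 0 came without E2 replicate 1, where limma gave 917 genes lower at an unadjusted p under 0.05. With the replicate block, 10 genes were higher and 0 lower (1524 and 886 at an unadjusted p under 0.05), 0 members were called, and the Cyp26a1 adjusted p was 0.162. The deviations of same-numbered tumours correlated across genes at -0.03, -0.18 and -0.13. Those of differently numbered tumours correlated at -0.12 to 0.24. These values showed no pairing by number, but deviations from a mean of 3 tumours cannot settle whether there was one. The sign of the change was kept in every alternative run for 8 of the 9 members. Cyp26b1 reversed, to 0.0034 with repeated quantile normalization and 0.018 with median centring. Where counts moved, the cause was not tested. With 3 arrays a group, 53% of simulated log2 changes of 1 were found, and smaller ones such as that of Rara were not simulated.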

Other observations

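Cyp26a1 and Rarb included, 31 mouse genes held a DR5 element in the 300-base window around a RefSeq start, and 11 of them were measured. Of these, 2 were higher with E2 in limma over all genes, Cyp26a1 and Prokr2, which encodes a prokineticin receptor (change 0.86, adjusted p = 0.0388), and 0 were lower, against 1.06% and 0.326% of all genes. The counts of these 11 genes include Cyp26a1, whose call was known before the search for motifs, so they carry no test. At an unadjusted p under 0.05, 3 were higher and 3 lower, against 10.4% and 6.16% of all genes. The changes of the 11 genes ran from -0.75 to 1.23 with a median of -0.02, against -0.01 for all genes, and 5 lay above 0. Without placebo replicate 3, 2 were higher and 1 was lower, against 6.4% and 5.21% of all genes. Among the 39 genes of the other retinoid lists with a window, 0 held the element.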
